A study of Mus musculus with 18 samples.

Results

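Tank, Psmd14, Tbr1, Slc4a10 and Dpp4 are 5 neighbouring genes of mouse chromosome 2. They were followed across cells of the olfactory epithelium sorted by a fluorescent reporter that follows a receptor gene. They are 5 of 23359 gene symbols with values in 18 RNA-seq libraries. The set was selected on these values, because Psmd14 and Tbr1 were both higher in Taar5+ than in control cells, and the other 3 genes were taken as their neighbours. The difference between Taar5+ and control cells is therefore given for these 5 genes as a description, with no test.

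The libraries came from cells of the main olfactory epithelium (MOE), where the olfactory sensory neurons (OSNs) of the nose lie. Most OSNs use an odorant receptor (OR), and a small set uses a trace amine-associated receptor (TAAR). Mice carried a knock-in allele, Taar5-ires-Cre with the reporter lox-L10-GFP (Taar5 line) or Taar6-ires-Cre with the reporter lox-ZsGreen (Taar6 line), and cells that transcribe the tagged receptor gene make Cre, which turns the reporter on. Cells were sorted by fluorescence, and the labels name TAAR5-Cre&L10-GFP mice at postnatal day 11 to 14 (7 GFP-positive libraries, Taar5+, and 9 GFP-negative libraries, control) and TAAR6-Cre&ZsGreen mice at postnatal day 16 to 17 (1 ZsGreen-positive library, Taar6+, and 1 ZsGreen-negative library, control). Negative cells came from animals with the same alleles. By the paper's estimate most of the negative cells, but not all, were OSNs that express an OR. The labels give the strain C57BL/6 for all of them, while the reporting summary of the study gives a mixed background and older mice. Cre follows the tagged receptor gene, so Taar5+ or Taar6+ names the reporter that was on and not a pure population of 1 receptor. Replicate numbers are label numbers, and nothing says that the libraries came from separate animals, so the spread and the p-values below measure differences between these libraries only.

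Psmd14 encodes the deubiquitinating enzyme of the proteasome lid, also known as Rpn11 or POH1, a metalloprotease that removes ubiquitin chains from substrates as they enter the proteasome. Tbr1 encodes a T-box transcription factor best known for the identity of deep-layer neurons of the cerebral cortex and of projection neurons of the olfactory bulb. Tank encodes an adaptor that binds TRAF proteins and the kinase TBK1 in innate immune signalling, Slc4a10 a sodium-coupled bicarbonate transporter of neurons and choroid plexus, and Dpp4 a membrane-bound prolyl peptidase also known as CD26. A gene for a proteasome subunit is used by every cell, whereas Tbr1 is best known from the neuron types named above. Psmd14 and Tbr1 are direct neighbours.

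In the GENCODE annotation of GRCm38, the build the study's reads were mapped to (mm10), Psmd14 lies at chr2:61711694-61800376 and Tbr1 at chr2:61802930-61814114, both on the plus strand, with 2553 bases between the annotated end of the first and the annotated start of the second. The RefSeq start of Tbr1, at position 61804453, lies 1523 bases inside this annotated gene and is 4.08 kb past the end of Psmd14. Tank (chr2:61578585-61654171, plus strand) ends 57.5 kb before Psmd14. Slc4a10 (chr2:62046462-62326730, plus strand) starts 232 kb past Tbr1, and Dpp4 (chr2:62330073-62412231, minus strand) ends 3342 bases past Slc4a10, the pair meeting tail to tail. The longest coding transcript had 12 exons for Psmd14, 6 for Tbr1, 7 for Tank and 26 each for Slc4a10 and Dpp4. The table holds 1 value per gene, so reads between Psmd14 and Tbr1, or the use of single exons, were not analysed here.

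The stretches before the starts of Psmd14 and Tbr1 are shown because the pair were higher together and lie close on 1 strand. Each is the 250 bases before the RefSeq start in GRCm38.p6, plus strand, written 5′ to 3′, at chr2:61711444-61711693 for Psmd14 and chr2:61804203-61804452 for Tbr1. Capitals mark the GC box GGGCGG and the CCAAT box on either strand in the Psmd14 window, and the homeodomain core TAATTA in the Tbr1 window.
Psmd14: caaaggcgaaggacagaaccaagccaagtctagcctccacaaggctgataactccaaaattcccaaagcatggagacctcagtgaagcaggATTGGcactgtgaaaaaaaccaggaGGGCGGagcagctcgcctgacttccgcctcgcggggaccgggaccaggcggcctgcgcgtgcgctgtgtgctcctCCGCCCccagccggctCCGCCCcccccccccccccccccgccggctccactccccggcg
Tbr1: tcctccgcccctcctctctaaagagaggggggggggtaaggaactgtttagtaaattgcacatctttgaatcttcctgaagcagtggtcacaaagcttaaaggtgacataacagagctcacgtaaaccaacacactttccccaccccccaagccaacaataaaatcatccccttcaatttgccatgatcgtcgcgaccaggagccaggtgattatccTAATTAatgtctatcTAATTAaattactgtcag
The 2 windows differed in composition. The Psmd14 window had a GC content of 66.8% and 18 CG pairs, and the Tbr1 window 45.2% and 5, against a median of 52.4% and 6 over 32851 RefSeq promoter windows of the same length. The Psmd14 window held 3 GC boxes (on both strands together, as in 32.7% of all windows at least 1) and 1 CCAAT box (33.8% of all windows). The Tbr1 window held 2 TAATTA matches, a motif present in 4.84% of all windows, and 1 GC box that is not capitalised. TAATTA reads the same on both strands and was counted once per place. Other motifs searched on both strands were the Ebf core CCCNNGGG (11.8% of windows), the T-box site GGTGTGA (3.33%), the antioxidant response element core TGACNNNGC (10.2%) and the TATA box TATAAA (12.4%), and none of these letters stood in either of the 2 windows. In the windows of the other 3 genes TAATTA, the T-box site and the antioxidant response element core were absent. Of the 4 Tank windows, 2 held 3 GC boxes each and the other 2 held 1 CCAAT box and 1 TATAAA each. Of the 2 Slc4a10 windows, 1 held a CCAAT box and the other a TATAAA, and the Dpp4 window held 1 TATAAA and 1 CCCNNGGG. These motifs were chosen with the sequences in view, the matches are descriptions of letters and not of bound sites, and in GENCODE the Tbr1 window lies within an exon of a noncoding transcript of Tbr1.

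Values are TPM (transcripts per 1000000), a share of the library corrected for transcript length, which keeps no record of sequencing depth. The depth behind each value is therefore unknown, and a value of 0 may be a failed estimate, so such genes are called listed at 0. In bulk sorted cells, more cells using a gene and more RNA per cell cannot be told apart. Omp, a marker of mature OSNs, was at 3908 to 20070 TPM in every library. Summed Taar TPM ranged from 1517 to 7804 in Taar5+ libraries and from 94.5 to 403 in 8 controls (in control replicate 2 the Taar values above 0 repeat those of replicate 1 and were not counted), while summed OR TPM ranged from 225 to 5525 against 6174 to 20251. A pair of libraries stood apart. Taar5+ replicate 5 had the lowest summed Taar TPM (1517) and the highest summed OR TPM (5525) of its group, and control replicate 2 had 5891 symbols above 0, where the other controls had 11259 to 16888.

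Psmd14 was an abundant transcript in every library, and in Taar5+ cells it was several times higher. The lowest, median and highest Taar5+ values were 260, 864 and 1171 TPM, and those of the controls 138, 215 and 422 TPM. All but 1 of the Taar5+ libraries lay above every control, and the exception was replicate 5 at 260 TPM, inside the control range. The highest control was replicate 2 at 422 TPM. Taar5+ cells had a mean of 853 ± 300 TPM (SD, n = 7) and controls one of 232 ± 87.2 TPM (SD, n = 9), a ratio of means of 3.68. On the log2(TPM + 1) scale, which understates changes of low genes but hardly those of one this abundant, the difference was 1.83 with a standard error of 0.29. Without replicate 5, the 6 remaining Taar5+ libraries had a mean of 952 ± 161 TPM (SD) and a lowest value of 790. Without control replicate 2, the 8 remaining controls had a mean of 208 ± 53.3 TPM (SD) and a highest value of 299. These libraries were left out after seeing the data and are those that made the groups overlap. The share of all genes that separate after the same removal is not given, so nothing is read from the gap.

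Tbr1 was present at a low level in all 7 Taar5+ libraries and listed at 0 in most controls. Its values in Taar5+ libraries were 7.56, 4.85, 13.2, 10.1, 1.97, 10.6 and 13.8 TPM for replicates 1 to 7. In controls it was above 0 in 3 of 9 libraries, at 1.25 TPM in replicate 3, 3.30 TPM in replicate 4 and 0.663 TPM in replicate 5. Again 6 of 7 Taar5+ libraries lay above every control, and replicate 5 at 1.97 TPM was the exception. Psmd14 and Tbr1 were chosen on this contrast, and the share of all genes that separate as far is not given. Nothing is therefore read from these counts of libraries. The mean was 8.87 ± 4.34 TPM (SD, n = 7) against 0.580 ± 1.11 TPM (SD, n = 9), and the difference on the log2(TPM + 1) scale was 2.69 with a standard error of 0.46. With 6 controls at 0 this value leans on the pseudocount, and with 0.1 in place of 1 it was 4.96. Both values compare the groups, and in absolute terms Tbr1 remained a small transcript, with means of 8.87 TPM for Tbr1 and 853 TPM for Psmd14 in the same Taar5+ libraries.

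**Figure D1:**
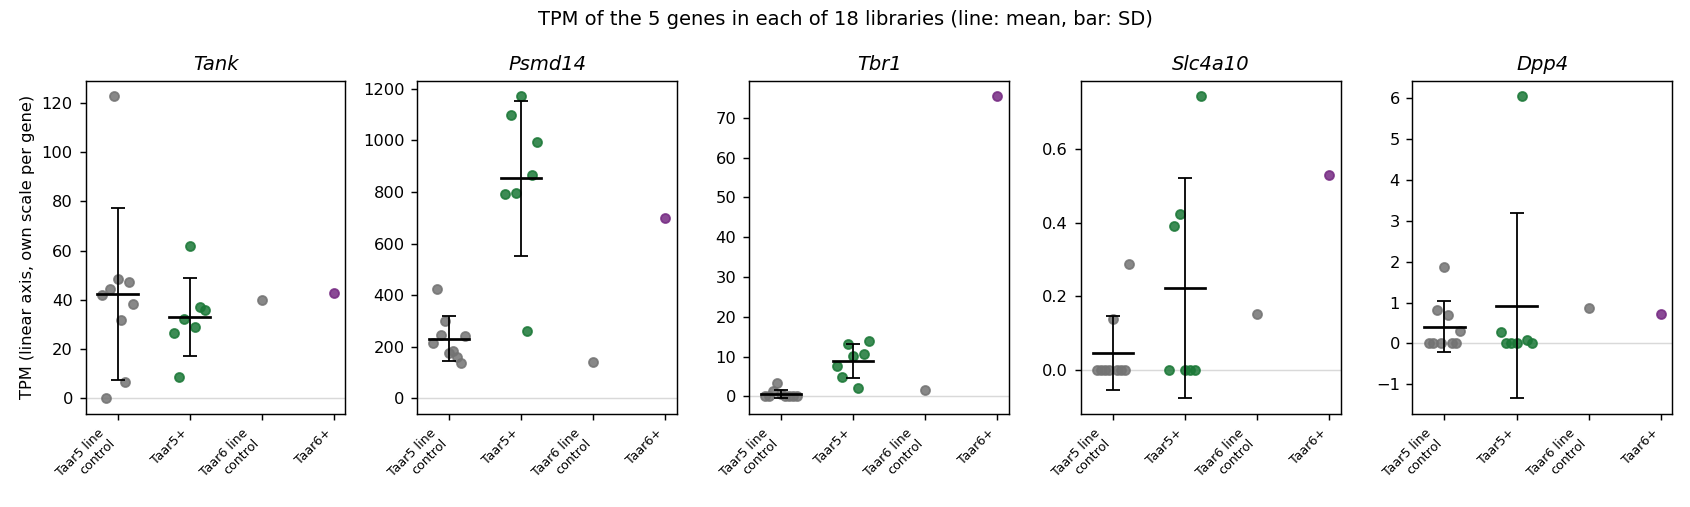
TPM of Tank, Psmd14, Tbr1, Slc4a10 and Dpp4 (linear axis, a scale of its own for each gene) in the 9 control and 7 Taar5+ libraries of the Taar5 line and the 2 libraries of the Taar6 line. Points are libraries, horizontal lines are means and bars are SD, which reach below 0 for genes mostly at 0. For Psmd14 and Tbr1, 6 of 7 Taar5+ points lie above all controls, and for Tank, Slc4a10 and Dpp4 the groups overlap. Psmd14 and Tbr1 were chosen on this contrast, so their separation is a description.

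For the genes on either side of the pair, Taar5+ and control libraries overlapped. Tank ran from 8.80 to 61.9 TPM (median 32.4) in Taar5+ libraries and from 0 to 123 TPM (median 41.9) in controls, with means of 33.1 ± 15.8 (SD, n = 7) and 42.4 ± 34.9 (SD, n = 9). No Taar5+ library lay above every control for Tank, and its log2 difference of 0.22 was smaller than its standard error of 0.75. The mean TPM of Tank was lower in Taar5+ cells while its mean log2 value was higher, with control replicate 2 listed at 0 and control replicate 4 at 123 TPM. Without control replicate 2 the log2 difference was -0.37.

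Slc4a10 was near 0 throughout. It was above 0 in 3 of 7 Taar5+ libraries, at 0.390 TPM in replicate 2, 0.424 TPM in replicate 3 and 0.744 TPM in replicate 7, and in 2 of 9 controls, at 0.137 TPM in replicate 5 and 0.287 TPM in replicate 9. No library of the Taar5 line reached 1 TPM. Dpp4 was above 0 in 3 Taar5+ and 4 control libraries. Its highest value by far, 6.05 TPM, was in Taar5+ replicate 5, and the next highest was 1.86 TPM in control replicate 5. The log2 differences were 0.19 for Slc4a10 and 0.08 for Dpp4, both of genes below the filter on low values, and that of Dpp4 was -0.31 without Taar5+ replicate 5. The levels of the 5 genes thus differed widely, with Psmd14 at 138 to 1171 TPM in the Taar5 line, Tank at 0 to 123, Tbr1 at 0 to 13.8, and Slc4a10 and Dpp4 mostly at 0. Within Taar5+ cells the ranges of Tank (8.80 to 61.9 TPM) and Tbr1 (1.97 to 13.8 TPM) overlapped, and so did those of Slc4a10 and Dpp4.

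Of the 5 genes, 3 passed the filter (1 TPM or more in 7 or more of the 16 Taar5 line libraries) and 2 of these, Psmd14 and Tbr1, had an adjusted p under 0.05 with a higher level in Taar5+ cells, beside 0.144% of the 12502 genes tested across the table (18 genes). The choice of the members used this contrast, so nothing is read from that count. Tbr1 reached 1 TPM in 9 of the 16 libraries, the 7 Taar5+ and 2 controls, so that it passed the filter through the group where it is high.

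The marker sums of the libraries that stand apart differed from those of their groups, in both directions. In Taar5+ replicate 5 the summed TPM of 5 sustentacular cell markers was 14634, against 161 to 3582 in the other Taar5+ libraries, that of 3 horizontal basal cell markers was 181 against 0 to 17.5, that of 5 microvillar cell markers was 219 against 5.44 to 55.8, and that of 6 blood and immune markers was 293 against 0 to 101. It also had the lowest Psmd14 and Tbr1 and the highest Dpp4 of its group. In control replicate 2, with the highest Psmd14 of the controls, the summed sustentacular markers were 7217 TPM against 313 to 1654 in the other controls, and the horizontal basal cell markers Krt5, Krt14 and Trp63 were all listed at 0. Its sums were below the other controls for mature OSN (14127 against 22817 to 50249 TPM), microvillar (13.2 against 22.7 to 705 TPM) and blood and immune markers (98.5 against 118 to 609 TPM). All 6 progenitor markers were listed at 0 there, where the other controls had sums of 0 to 128 TPM. Its immature OSN and ensheathing glia sums lay within the range of the other controls. Over all libraries, the sums in Taar5+ against controls had medians of 5.01 and 98.0 TPM for horizontal basal cells, 6.10 and 174 TPM for blood and immune cells, 17.9 and 158 TPM for microvillar cells, 18.2 and 66.5 TPM for ensheathing glia, 3.63 and 63.3 TPM for progenitors and 716 and 1365 TPM for sustentacular cells. A sum follows its most abundant genes, and for sustentacular cells 4 of 5 markers had a positive log2 difference (median 0.54), with Cyp2g1, for example, at 1268 ± 2202 TPM in Taar5+ cells and 595 ± 1122 TPM in controls (SD, n = 7 and 9). Among neuronal lists the medians of the sums were 24951 and 32700 TPM for mature OSN markers and 2189 and 3705 TPM for immature ones. Of the genes on these lists, 1 passed the test, the mature OSN gene Stoml3, which fell from 15101 ± 6089 TPM in controls to 5510 ± 1795 TPM in Taar5+ cells (SD, n = 9 and 7). Of the 8 mature OSN markers, 6 had a positive log2 difference, with a median of 0.31 over the list, and Omp was at 14669 ± 3606 TPM in Taar5+ cells and 12131 ± 4982 TPM in controls (SD, n = 7 and 9). The part of other cells in the differences of Psmd14 and Tbr1 was not tested. Of 8 markers of forebrain glutamatergic neurons, where Tbr1 is best known, 3 passed the filter and 0 passed the test, Neurod2 was listed at 0 in all 16 libraries, and the sums were 37.5 to 104 TPM in Taar5+ and 31.7 to 105 TPM in controls, so these marker sums overlapped.

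The Taar6 line held 1 library on each side, which allows no test and has no replicate check. The values of all 18 libraries were at hand when the set was chosen, so this pair is not taken as an independent check. Psmd14 was at 700.1 TPM in the Taar6+ library and 142 TPM in its control, a ratio of 4.93. Tbr1 was at 75.5 TPM against 1.51 TPM, a ratio of 49.8. The Taar6+ value of Tbr1 was the highest of all 18 libraries, where the highest Taar5+ value was 13.8 TPM, and line, reporter and age cannot be told apart in that difference. Tank was at 42.9 and 40.0 TPM, Slc4a10 at 0.530 and 0.152 TPM, and Dpp4 at 0.712 and 0.856 TPM. As differences of log2(TPM + 1) the values were 2.29 for Psmd14, 4.93 for Tbr1, 0.10 for Tank, 0.41 for Slc4a10 and -0.12 for Dpp4, beside a median of -0.21 over the 15189 genes with at least 1 TPM in either library. In this pair, 1.19% of those genes (180) were at least 4-fold higher on this scale, and Psmd14 and Tbr1 were both among them. The difference of Tbr1 was reached or passed by 15 genes, itself included, of which 12 were Taar genes, and that of Psmd14 by 115 genes, itself included, of which 14 were Taar genes. In the Taar6+ library the summed sustentacular markers were 2575 TPM against 516 TPM in its control, and the blood and immune markers 747 against 342 TPM, with C1qa (241 against 28.1 TPM) and C1qb (288 against 24.7 TPM) higher and Cd74 (31.3 against 151 TPM) lower. The other sums were lower in the Taar6+ library for progenitors (36.4 against 115 TPM), horizontal basal cells (15.6 against 67.4 TPM), microvillar cells (55.1 against 109 TPM), ensheathing glia (22.1 against 33.4 TPM) and immature OSNs (2133 against 3568 TPM), and were 24104 against 25561 TPM for mature OSNs.

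Psmd14 works as part of a complex, so its level was set beside that of the other proteasome subunits, whose genes are usually transcribed in step. The proteasome has a core particle, which holds the protease sites, and a regulatory particle, which recognises, unfolds and deubiquitinates substrates. The other 17 regulatory particle subunits had a median level of 165 to 247 TPM in Taar5+ libraries and 182 to 272 TPM in controls. Psmd14 stood at 1.01 ± 0.534 times that median in controls (SD, n = 9, range 0.594 to 2.32), in the middle of the 18 subunits at ranks 5 to 15. In Taar5+ libraries it stood at 4.05 ± 1.36 times the median (SD, n = 7, range 1.12 to 5.0). It was the most abundant of the 18 subunits in 5 of the 7 libraries, ranked 2 in replicate 6 and 8 in replicate 5. In the Taar6 line the ratio was 4.59 with rank 1 in the Taar6+ library, and 0.801 with rank 13 in its control. Since the ratio holds the same Psmd14 values that chose the gene, it is a description. It is taken within a library and so does not depend on how the libraries were scaled to each other.

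None of the other subunits passed the test in limma. Their 31 differences between Taar5+ and control cells ran from -0.36 to 0.23 on the log2(TPM + 1) scale, with medians of -0.13 for the 14 core genes and -0.06 for the 17 regulatory genes, and the lowest adjusted p of limma was 0.541. The largest differences in the core were those of Psmb5 (-0.36, SE 0.15), which carries the chymotrypsin-like protease site, Psma5 (-0.29, SE 0.22) and Psma2 (-0.23, SE 0.16). In the regulatory particle they were those of the ubiquitin receptors Psmd4 (-0.30, SE 0.20) and Adrm1 (-0.27, SE 0.23) and of Psmd3 (0.23, SE 0.89), whose control values spread from 0 to 449 TPM. In the Taar6 pair all 31 were lower in the positive library, with differences from -0.73 to -0.02 and a median of -0.25, beside a median of -0.19 over all genes tested in the Taar5 line. Psmd7, the inactive partner with which Psmd14 forms a dimer in the lid, was at 181 ± 40.2 TPM in Taar5+ cells and 191 ± 47.1 TPM in controls (SD, n = 7 and 9), a difference of -0.06 with a standard error of 0.22.

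**Figure D2:**
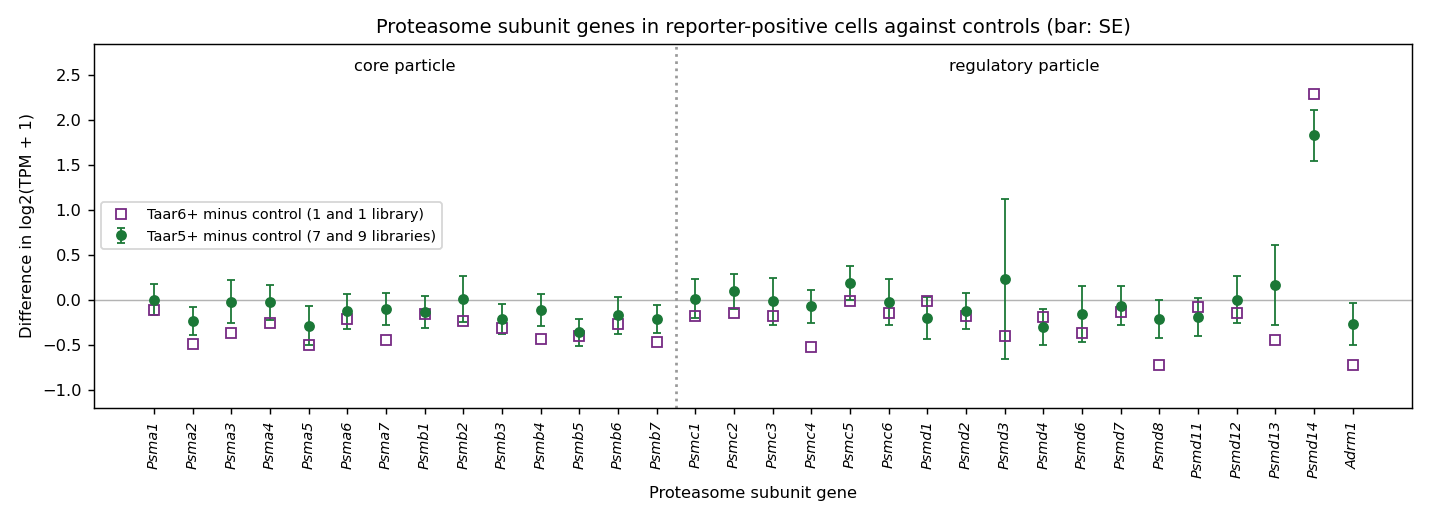
Difference in log2(TPM + 1) of 14 core and 18 regulatory particle genes of the proteasome. Filled circles give Taar5+ minus control (7 and 9 libraries) with the standard error of the limma fit as bars, and open squares Taar6+ minus control (1 library each, no error). Psmd14 lies at 1.83 and 2.29, and the other 31 genes lie between -0.73 and 0.23.

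The other families of the 5 genes were read from the same fit. Among 70 tested genes of 8 lists, the members left out, 0 passed an adjusted p of 0.05 in limma, beside 0.168% of all genes tested. At an unadjusted p under 0.05 there were 3 of them (4.29%), Psmb5, Stambp and Bcl11b, beside 881 of all genes (7.05%). A fit that weights libraries by their quality called 7 of the 70, namely Bcl11a, Bcl11b, Psmb5, Psmb7, Psmd4, Psmd6 and Psmd8, in a fit that called 1410 genes in all. The median difference of the 70 was -0.07, and that of all genes tested 0.02.

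Psmd14 belongs to the JAMM metalloproteases and their MPN relatives, where 0 of 11 other tested genes passed and the median difference was -0.18. The largest values were those of the histone H2A deubiquitinase Mysm1 (-0.96, SE 0.48, adjusted p of limma 0.752), the translation factor subunit Eif3f (-0.92, SE 0.84) and Mpnd (-0.85, SE 0.93). Stambp, which trims ubiquitin on endosomes, was at 44.4 ± 11.9 TPM against 80.2 ± 36.5 TPM (SD, n = 7 and 9; adjusted p of limma 0.467). Cops5, the catalytic subunit of the COP9 signalosome and the closest counterpart of Psmd14 in a lid-like complex, was at 345 ± 39.6 and 337 ± 68.8 TPM, a difference of 0.05 (SE 0.16).

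For Tbr1, 15 other T-box genes were in the table. Only Eomes and Mga passed the filter and 6 were listed at 0 in all 16 libraries. Eomes, the closest relative of Tbr1 and also known as Tbr2, was at 10.1 ± 6.73 TPM in Taar5+ cells and 8.61 ± 4.70 TPM in controls (SD, n = 7 and 9), a difference of 0.08 (SE 0.67). Its level in Taar5+ cells was thus close to the 8.87 TPM of Tbr1, while in controls Tbr1 was at 0.580 TPM. Mga differed by -0.19 (SE 0.54). Of 13 genes known as targets or partners of Tbr1 in the cortex, 5 passed the filter and 0 the test. Bcl11b (Ctip2) was at 8.42 ± 7.31 TPM against 17.5 ± 7.70 TPM (SD, n = 7 and 9), a difference of -1.36 (SE 0.59, adjusted p of limma 0.614), and in the Taar6 pair at 37.9 against 84.9 TPM. Bcl11a, which encodes a related zinc finger protein, differed by 0.44 (SE 0.22, adjusted p of limma 0.757) and Cntn2, an axonal adhesion molecule, by 0.39 (SE 0.46). Reln, the secreted cortical target, stayed at or under 0.635 TPM in every library, and Fezf2 was listed at 0 in 16 of the 18.

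The remaining lists also had 0 genes past the test. For SLC4 bicarbonate transporters, the family of Slc4a10, 6 of 9 other genes passed the filter, with a median difference of 0.36 and the largest values for Slc4a3 (1.09, SE 0.56, adjusted p of limma 0.782), Slc4a2 (0.52, SE 0.68) and Slc4a11 (0.50, SE 0.91). For the S9 prolyl peptidases, the family of Dpp4, 6 of 8 passed the filter, with a median of 0.32 and the largest values for Apeh (1.46, SE 0.93, adjusted p of limma 0.897), Prepl (0.84, SE 0.70) and Dpp8 (-0.53, SE 0.63). For TANK and TBK1 signalling, 10 of 12 passed the filter, with a median of -0.07. The adaptor Traf2 differed by 1.20 (SE 0.59, adjusted p of limma 0.752), the interferon regulatory factor Irf7 by -1.02 (SE 0.69, adjusted p 0.922) and Azi2, an adaptor of TBK1 like Tank, by 0.50 (SE 0.68). Tbk1 itself was at 18.7 ± 8.24 TPM in Taar5+ cells and 30.5 ± 24.3 TPM in controls (SD, n = 7 and 9).

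Beyond the 5 genes, the neighbourhood within 1 Mb of the annotated Tbr1 start held 7 further genes of the table, out of 25 annotated genes that overlap this window, the 5 included. Of the 7, 5 passed the filter, 0 had an adjusted p under 0.05 in limma and 0 an unadjusted p under 0.05. On the Tank side, Rbms1, which encodes an RNA-binding protein, was at 154 ± 51.8 TPM in Taar5+ cells and 129 ± 58.1 TPM in controls (SD, n = 7 and 9; difference 0.86, SE 0.81), and the noncoding Gm13582 stayed at or under 1.17 TPM. On the Dpp4 side, the calcium-binding protein gene Gca differed by 0.72 (SE 0.63), the potassium channel gene Kcnh7 by 0.56 (SE 0.53), the viral RNA sensor gene Ifih1 by -0.20 (SE 0.53) and Fap, a peptidase gene and close relative of Dpp4, by 0.15 (SE 0.67). Gcg, the glucagon gene, was listed at 0 in all 18 libraries. Like Dpp4, Fap had its highest value in Taar5+ replicate 5, at 18.3 TPM against 5.63 TPM in the highest control. In the Taar6 pair the differences were -0.22 for Rbms1, 0.34 for Gca, 0.98 for Kcnh7, -0.09 for Ifih1 and 1.83 for Fap (5.94 against 0.947 TPM). Among the 12 genes of the table in this window, Psmd14 and Tbr1 had the largest differences in both lines. The window was placed around Tbr1 because these genes were higher in Taar5+ cells, so their rank is a description and nothing is read from it.

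**Figure D3:**
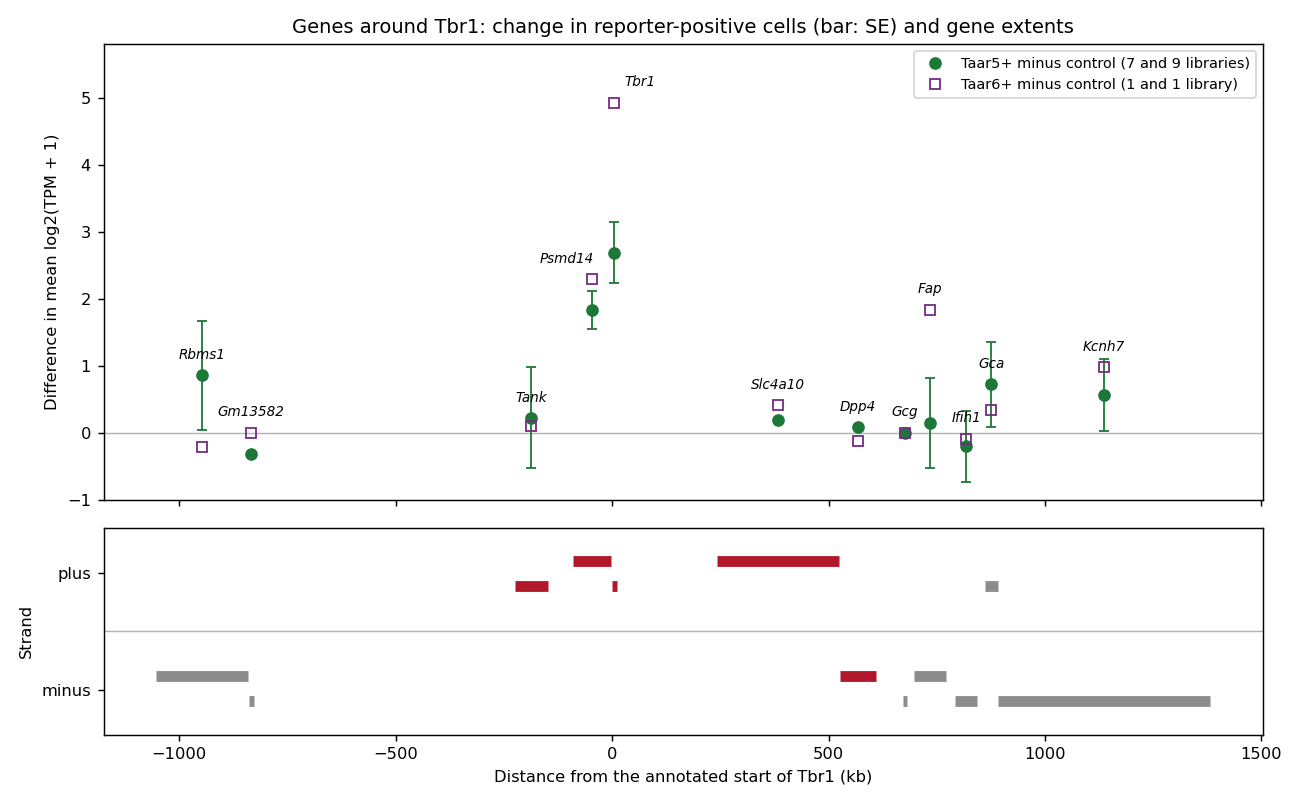
Upper panel, difference in log2(TPM + 1) of the 12 genes of the table near Tbr1 against distance from its annotated start in kb, placed at each gene's middle. Filled circles give Taar5+ minus control with the standard error where the gene passed the filter, and open squares Taar6+ minus control (1 library each). The lower panel shows the extent and strand of each gene, the 5 genes in red. Psmd14 and Tbr1, which adjoin, lie at 1.83 and 2.69 in the Taar5 line and at 2.29 and 4.93 in the Taar6 line.

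Within a group, the levels of adjacent genes were compared over libraries in 4 pairs and 2 groups, 8 correlations of log2(TPM + 1) in all, with exact permutation p-values, two-sided. Psmd14 and Tbr1 had r = 0.746 over the 7 Taar5+ libraries (exact permutation p = 0.10, adjusted over the 8 p = 0.611) and rho = 0.286 (exact permutation p = 0.556, adjusted p = 0.741). Without replicates 4 and 5, those farthest from the median of Psmd14, r was -0.43. Left out alone, replicate 4 gave r = 0.741 and replicate 5 r = -0.29, so that this relation rests on replicate 5, which is low for both genes. Over the 9 controls r was 0.308 (exact permutation p = 0.413, adjusted p = 0.611) and rho 0.366 (exact permutation p = 0.337, adjusted p = 0.633), and r was 0.689 without replicates 2 and 8. None of the 8 had an adjusted p under 0.05. A relation between the levels of the pair within a group was thus not shown with 7 and 9 libraries, and the plot of Tbr1 against Psmd14 shows the separation between groups and little order within them.

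**Figure D4:**
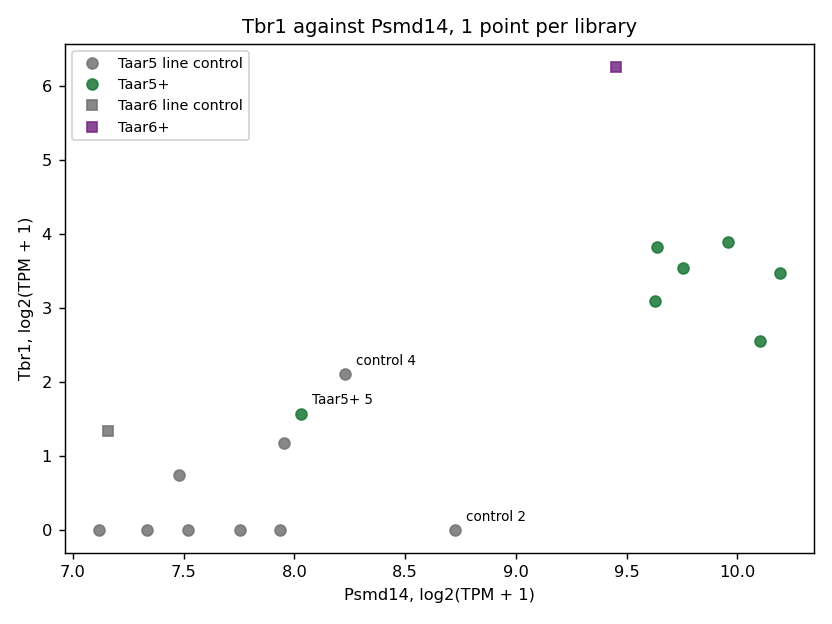
Tbr1 against Psmd14, both as log2(TPM + 1), with 1 point per library. Of the Taar5+ libraries, 6 lie to the upper right, apart from all controls, replicate 5 lies among the controls, and the Taar6+ library lies highest for Tbr1.

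Over the 16 Taar5 line libraries together, the genes whose pattern was most like that of Tbr1 (Pearson r of log2(TPM + 1) among 12487 tested genes, the Taar genes left out) were Acss2 (r = 0.955), which encodes an acetyl-CoA synthetase, Ppa1 (r = 0.916), an inorganic pyrophosphatase, and Acsm4 (r = 0.884), a medium-chain acyl-CoA synthetase, with Psmd14 next (r = 0.881). For Psmd14 they were Ppa1 (r = 0.964), Acsm4 (r = 0.917) and Tbr1 (r = 0.881). These values describe libraries that fall into 2 groups and largely restate the difference between them. With the group means subtracted, the nearest to Tbr1 were Acss2 (r = 0.873), Sub1 (r = 0.794), a transcriptional coactivator, and Ube2e1 (r = 0.750), a ubiquitin-conjugating enzyme, and Psmd14 ranked 116 (r = 0.543). The nearest to Psmd14 were then Mpc1 (r = 0.882), a mitochondrial pyruvate carrier subunit, Ppa1 (r = 0.878) and A430035B10Rik (r = 0.863), and Tbr1 ranked 152. The genes named are the highest of 12487 correlations over 16 libraries. How far these values rest on single libraries, such as Taar5+ replicate 5, was not tested. Acss2 itself was at 385 ± 78.5 TPM in Taar5+ cells and 202 ± 67.6 TPM in controls (SD, n = 7 and 9; adjusted p of limma 0.0758).

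Shared sequence was small for these genes. Of the 50-base words in their annotated transcripts, 0.854% of those of Psmd14 also occurred in another gene, the pseudogene Gm12096, and 0.109% of those of Tbr1 in any other gene, while Tank, Slc4a10 and Dpp4 had 0. How the authors counted reads that fit several places, and whether strand was used, is not given in the sources used here. A gene antisense to Dpp4, Gm13561, overlaps it, so reads of the pair could not be told apart without strand.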

How the data were processed

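RNA was measured in cells sorted from the MOE. Per the paper's methods and the labels, the authors extracted RNA with DNase treatment and made Smart-seq2 libraries, which amplify full-length cDNA by PCR without molecular identifiers. The authors' processing notes name Trimmomatic 0.36, HISAT2 2.1.0, Cufflinks 2.2.1, DESeq2 and the builds GRCm38 and mm10. The deposited values are TPM, and how they were made from the Cufflinks output, and with which annotation, is not given in the sources used here. PCR amplification of few cells can raise the spread of low genes and give values of 0.

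The table had 23847 rows and 23359 symbols, and 488 rows that repeat a symbol were summed with it, none of them of the 5 genes. Groups came from the labels. limma 3.58.1 in R 4.3.3 (with a mean trend) was fitted to log2(TPM + 1) of the 12502 genes that reached 1 TPM in 7 or more of the 16 Taar5 line libraries, and p-values were adjusted by Benjamini-Hochberg, the threshold being 0.05. The count test that the authors used needs counts and was not run. The script was tested on simulated data. Exact permutation tests enumerated every pairing in Python 3.11.15 with numpy 2.4.6, and scipy 1.17.1 ranked the values for rho. Coordinates came from GENCODE M21 on GRCm38, and promoter windows from RefSeq on GRCm38.p6.

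The 5 genes and all gene lists were chosen with earlier results of these data known. Named genes were the 5 genes, table genes overlapping 1 Mb around the Tbr1 start, in each list of related genes those past the threshold and the 3 tested genes with the largest difference, and the 3 genes most like Tbr1 and Psmd14. Psmd7, Cops5, Stambp, Reln, Fezf2 and Tbk1 were named in addition for their role or their p, with values seen. Alternatives changed the pseudocount, the filter, the scaling, the weights, the block and the libraries used.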

Additional observations from a re-analysis of the deposited data

Results flagged for a closer look

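In groups of 7 to 9 libraries, single values that stood far from the rest of their group were looked for in the TPM of the 5 genes and in the ratio of Psmd14 to the median of the other regulatory particle subunits. Among 12 groups of values 8 stood apart, where chance gives about 0.6 (1 in 20 groups). Genes that are mostly at 0 meet this easily, since any value above 0 then stands apart.

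Taar5+ replicate 5 gave 3 of them. Its Psmd14 was 260 TPM where the other 6 Taar5+ libraries were at 790 to 1171 TPM, its ratio to the other subunits was 1.12 where the others were at 3.77 to 5.0, and its Dpp4 was 6.05 TPM where no other Taar5+ library passed 0.289 TPM. Control replicate 2 had a ratio of Psmd14 to the other subunits of 2.32, where the other controls were at 0.594 to 1.23. In control replicate 4, Tank at 123 TPM stood apart from the other controls (at most 48.5 TPM), and so did Tbr1 at 3.30 TPM. The remaining values were Slc4a10 at 0.287 TPM in control replicate 9 and Dpp4 at 1.86 TPM in control replicate 5, both in groups mostly listed at 0.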

How the results depend on the processing

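Over 24 alternatives the difference between Taar5+ and control cells stayed positive in all 24 for Psmd14 (1.74 to 2.21), Tbr1 (2.56 to 4.96) and Slc4a10 (0.10 to 0.75), and in 20 of 24 for Tank (-0.37 to 0.58) and Dpp4 (-0.48 to 0.24). With a pseudocount of 0.1 the difference of Tbr1 was 4.96 and that of Slc4a10 0.75, and in the Taar6 pair that of Slc4a10 was 1.32, or 1.81 as the log2 ratio of TPM. Leaving out 1 library at a time gave 1.74 to 2.1 for Psmd14, 2.56 to 2.95 for Tbr1, -0.37 to 0.50 for Tank, 0.10 to 0.24 for Slc4a10 and -0.31 to 0.22 for Dpp4, and r of Psmd14 and Tbr1 in Taar5+ cells ran from -0.29 to 0.92. With quantile normalization r of the pair was 0.95 in Taar5+ cells (exact permutation, adjusted p = 0.195) and 0.36 in controls. None of the 8 correlations changed its call.

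Over all genes, 21 passed the threshold, 37 with quantile normalization, 1410 with array weights and 16 to 148 with 1 library left out. Without control replicate 2 there were 148, without Taar5+ replicate 5 there were 66, and without both, a choice made after seeing the data, there were 337, with differences of 2.21 for Psmd14, 2.89 for Tbr1, -0.36 for Tank and -0.36 for Dpp4. The causes were not tested. Of the 70 list genes, 7 passed with array weights, 0 in every other alternative and 0 to 0 with 1 library left out. With the replicate number as a block, 13 genes passed over the 14 libraries numbered 1 to 7, and 16 over the same 14 without the block. The member differences of these fits are equal by design, since each number holds 1 library of each group. Both fits count among the alternatives above. Same-numbered libraries had correlations of deviations from -0.01 to 0.28, over 0.1 in 5 of 7. Among the controls numbered 1 to 7 only, 4 of 7 Taar5+ libraries were closest to the control of their own number, a hint of pairing from the data. The numbers were not taken as pairs, since the labels give no shared source and all 7 would have had to be over 0.1. TPM keep no depth, so how firmly low values such as those of Tbr1, Slc4a10 and Dpp4 are known cannot be given.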
